A study of Mus musculus with 6 samples.

Results

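The mitochondrial genome of the mouse carries 37 of the 54532 genes in the table of these hearts, and all 37 were taken by their chromosome alone, without regard to their values. They comprise 13 protein-coding genes, 2 ribosomal RNA genes and 22 transfer RNA genes. The 6 libraries of bulk RNA came from hearts taken on day 7 after myocardial infarction (MI), each from a different mouse, 3 of them WT and 3 Crlf2-/-. Crlf2 codes for the part of the TSLP receptor to which TSLP binds, and the question was how the infarcted heart differs when this signal is missing. Both groups were C57BL/6 mice whose left anterior descending coronary artery had been ligated, and the study's methods give male mice of the C57BL/6J substrain aged 8 to 12 weeks and a Crlf2-/- line made on that background. The study's methods and results describe the samples as infarcted tissue together with the tissue around the infarct, and no unoperated heart was among the 6 libraries. With 3 mice per group, the tests measure only the spread between these mice.

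Mitochondrial DNA is a small circle that is copied from both strands into long RNAs, in which transfer RNAs sit between most of the other genes. The transfer RNAs are cut out, which frees the messenger and ribosomal RNAs, and most of the messenger RNAs then receive a short poly(A) tail. The proteins made from these messages are core subunits of respiratory complexes I, III, IV and V, and all other subunits are encoded in the nucleus. The heart is rich in mitochondria, most of them in cardiomyocytes. Pieces of mitochondrial DNA have also been copied into nuclear chromosomes during evolution, and such nuclear copies can be almost identical to their source.

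Such a copy covers part of the genes described here. In the GENCODE M21 annotation of GRCm38 (mm10), in which all 37 genes have the same start and end as in the deposited table, 7 genes annotated as unprocessed pseudogenes lie on the minus strand of chromosome 1 within chr1:24611535-24616197, a stretch of 4663 bases. They follow the same order as their sources on the mitochondrial chromosome within MT:6381-11042, a stretch of 4662 bases called the copied stretch below. The copies of mt-Co2 (Gm28661, 681 bases), mt-Atp6 (Gm10925, 678 bases), mt-Co3 (Gm28437, 783 bases), mt-Nd4l (Gm10222, 294 bases) and the first 876 bases of mt-Nd4 (Gm28439) had 0 mismatches to their source. The copy of mt-Nd3 (Gm28438, 345 bases) had 1 mismatch. The copy of the last 492 bases of mt-Co1 (Gm29216) had 6 mismatches, all near its first base, followed by an identical run of 479 bases. The 3 pairs shown next give the start of an identical copy and the windows that hold every mismatch, with the bases that differ in capitals (GENCODE M21 transcript sequences, 5′ to 3′).
mt-Co2, MT:7013-7072, plus strand: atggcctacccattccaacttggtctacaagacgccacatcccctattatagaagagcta
Gm28661, chr1:24615506-24615565, minus strand: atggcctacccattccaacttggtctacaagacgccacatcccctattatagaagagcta
mt-Co1, MT:6381-6440, plus strand: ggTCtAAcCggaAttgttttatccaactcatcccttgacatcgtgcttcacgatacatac
Gm29216, chr1:24616138-24616197, minus strand: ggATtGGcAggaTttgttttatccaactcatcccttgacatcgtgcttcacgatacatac
mt-Nd3, MT:9459-9490, plus strand: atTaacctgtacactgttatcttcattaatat
Gm28438, chr1:24613088-24613119, minus strand: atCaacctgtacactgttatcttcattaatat
Counted from the first base of mt-Co1, the substitutions from the mitochondrial gene to Gm29216 were T1056A, C1057T, A1059G, A1060G, C1062A and A1066T. Counted from the first base of mt-Nd3, the substitution to Gm28438 was T3C.

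Neighbouring mitochondrial genes also share bases with each other. mt-Atp8 and mt-Atp6 overlap by 43 bases, mt-Nd4l and mt-Nd4 by 7 bases, and mt-Nd5 and mt-Nd6, which lie on opposite strands, by 14 bases. The overlap of mt-Atp8 and mt-Atp6, which both encode subunits of complex V, is shown with the start codon of mt-Atp6 in capitals.
overlap of mt-Atp8 and mt-Atp6, MT:7927-7969, plus strand: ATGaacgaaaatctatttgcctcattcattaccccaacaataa
Fragments within such overlaps can belong to either gene, and how the counting treated them is not given in the sources used here. The same holds for strand, so RNA from a gene and RNA antisense to it cannot be told apart.

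The fragments on listed genes numbered from 18508646 to 19682428 in a library, and values are given as FPKM, which is fragments scaled to the length of the gene and the size of the library. Crlf2 itself was lower in every Crlf2-/- library but still read, at 13.2 to 19.8 FPKM against 21.6 to 26.6 FPKM in WT (log2 fold change -0.52, limma adjusted p = 0.521). A value for the whole gene does not show which exons were read. The labels' extraction text speaks of retina, but 0 of 8 retina genes passed the filter on low values, while all 14 cardiomyocyte genes did. Crlf2-/- replicate 2 stood apart by skeletal muscle and atrial genes, with Actn3 at 23.6 FPKM against at most 0.205 in the other 5 libraries and Myl4 at 6.97 against at most 0.679 FPKM. WT replicate 2 had the highest level of the fat gene Adipoq (7.02 FPKM against 0.131 to 2.67 in the others).

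Mitochondrial transcripts took up a smaller share of the fragments in each Crlf2-/- heart than in any WT heart. The share of fragments on listed genes that lay on the 37 genes was 3.13%, 3.42% and 4.07% in WT replicates 1 to 3, and 3.001%, 2.79% and 2.99% in Crlf2-/- replicates 1 to 3. The groups did not overlap, but the lowest WT and the highest Crlf2-/- heart were close, and WT replicate 3 lay well above all others. The mean was 3.54 ± 0.482% (SD, n = 3) in WT and 2.93 ± 0.123% in Crlf2-/- hearts, a difference of -0.616 percentage points and a ratio of 0.826. Without WT replicate 3 the difference was -0.35 points, and without both that library and Crlf2-/- replicate 2 it was -0.279 points. The Wilson 95% interval of each share was at most 0.018 points wide and covers counting error only. As a sum over the genes chosen, the share was given no test.

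**Figure D1:**
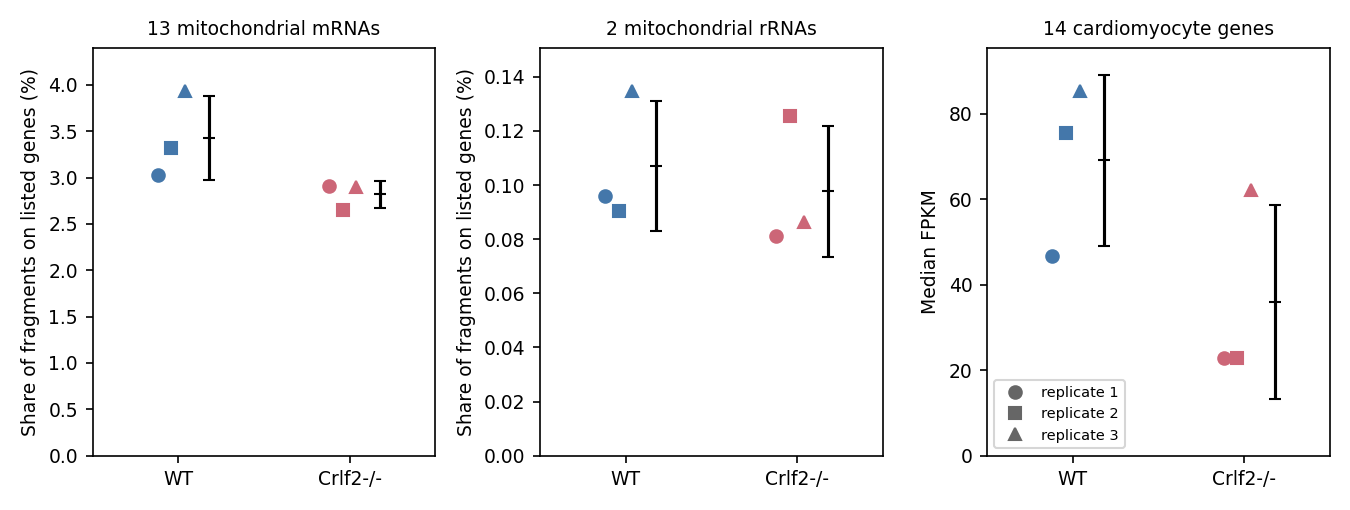
Share of fragments on listed genes (%) taken by the 13 mitochondrial mRNAs (left) and the 2 mitochondrial rRNAs (middle), and median FPKM of 14 cardiomyocyte genes (right), in 3 WT and 3 Crlf2-/- hearts; points are libraries, and bars give the mean and SD. The mRNA share did not overlap between groups, whereas the rRNA share and the cardiomyocyte median did.

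Nearly all of these fragments came from messenger RNAs, which made up 95.2% to 97.1% of the mitochondrial fragments of a library. Scaled to the fragments on nuclear protein-coding genes, a denominator that the mitochondrial genes do not enter, the summed mRNA differed by -0.28 on the log2 scale (Crlf2-/- minus WT, pooled SD 0.149), again without overlap. Without WT replicate 3 it differed by -0.18. That sum is dominated by the most abundant messages. With the median over the 13 genes in place of the sum, the difference was -0.11 and the groups overlapped. In each library that median is the value of mt-Nd5 or mt-Nd4 alone, so it does not stand for a typical message. The median log2 fold change of the 12 mRNAs tested below was -0.25.

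The 13 messages differed widely in level, and the low ones lay together on the genome. The 5 mRNA genes outside the copied stretch had mean levels over the 6 libraries of 1467 to 4075 FPKM, namely mt-Nd1, mt-Nd2, mt-Nd5 and mt-Nd6 of complex I and mt-Cytb, the mitochondrially encoded subunit of complex III. The 2 genes that lie partly inside it were in the same range or above, with mt-Co1, the catalytic subunit of complex IV, at 7100 FPKM and mt-Nd4 of complex I at 1591 FPKM. The 6 genes wholly inside it had means of 0.259 to 91.4 FPKM, and the highest of them was 16.1-fold below the lowest of the other 7. These 6, which are mt-Co2, mt-Atp8, mt-Atp6, mt-Co3, mt-Nd3 and mt-Nd4l, held 0.591% of the fragments of the 13 mRNAs, and the other 7 held 99.4%. Within complex IV alone, whose 3 mitochondrial subunits work in 1 enzyme, the mean FPKM of mt-Co1 was 77.7-fold that of mt-Co2 and 150-fold that of mt-Co3.

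**Figure D2:**
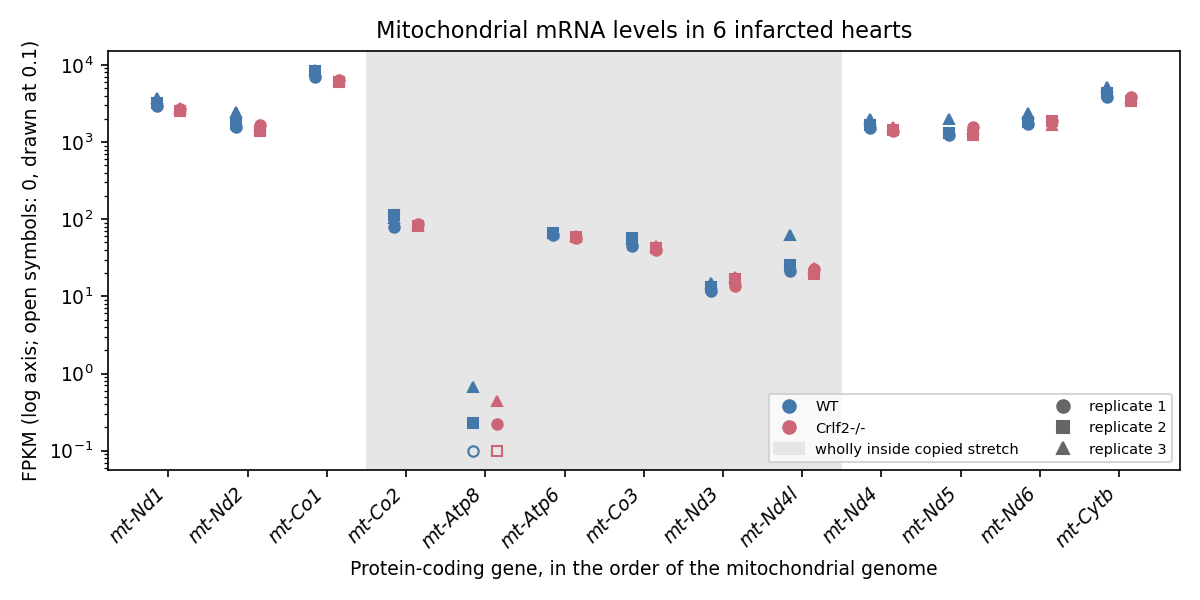
FPKM (log axis) of the 13 mitochondrial mRNAs in 3 WT and 3 Crlf2-/- hearts, in genome order; each symbol is 1 library, and open symbols are libraries with 0 fragments, drawn at 0.1. The 6 genes in the grey band, wholly inside the copied stretch, reach at most 114 FPKM in any library, and the other 7 are never below 1219 FPKM.

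The sequence shared with nuclear transcripts followed the same line. Of all 150-base windows of each gene, 99.4% of those of mt-Co2 and mt-Atp6, 99.8% of those of mt-Co3, 97% of those of mt-Nd3 and 98% of those of mt-Nd4l were found letter for letter in a nuclear transcript. For mt-Nd4 it was 59.2% and for mt-Co1 23.6%, and for mt-Nd1, mt-Nd2, mt-Nd5, mt-Nd6, mt-Cytb and both ribosomal RNAs 0%. mt-Atp8 also had 0%, although it lies inside the copied stretch. All but its last 43 bases fall in a gap between the copies of mt-Co2 and mt-Atp6, which measures 233 bases on both chromosomes. No nuclear gene of that annotation lies in the gap, and its chromosome 1 sequence was not analysed here. The last 43 bases of mt-Atp8, shared with mt-Atp6, lie in the part copied by Gm10925 but are shorter than the window. The transfer RNA genes did not show such a split. The 5 inside the copied stretch reached at most 15.8 FPKM in any library, but 10 of the 17 outside it were as low, at 8.45 FPKM or less, and the other 7 outside it reached up to 551 FPKM. How fragments that match more than 1 place were counted is not given in the sources used here, and the part that the nuclear copies play in these levels was not tested.

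**Figure D3:**
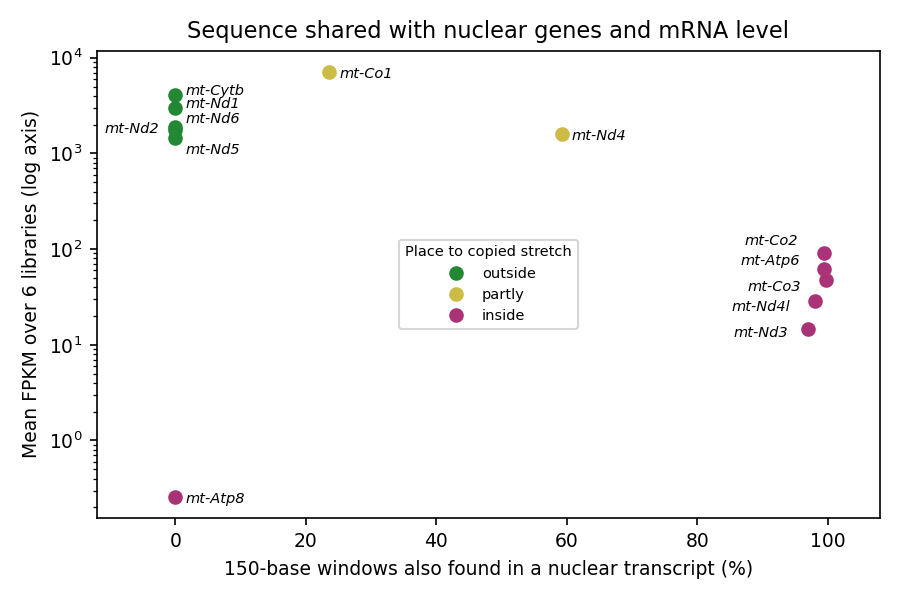
Mean FPKM over 6 libraries (log axis) of the 13 mitochondrial mRNAs against the percent of their 150-base windows found in a nuclear transcript, coloured by place relative to the copied stretch. The 5 genes at 97% or more lie between 14.6 and 91.4 FPKM, and mt-Atp8 lies at 0% and 0.259 FPKM.

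Of the 37 genes, 21 passed the filter on low values (10 or more fragments in 3 or more libraries, and 15 or more in all) and entered the test, namely 12 mRNAs, both rRNAs and 7 tRNAs. A gene was called where limma on log2(FPKM + 0.1), adjusted over 15520 genes by the Benjamini-Hochberg method, gave an adjusted p up to 0.05 and a log2 fold change of 0.5 or more in either direction. By this rule 0 of the 21 were called, against 2 of all genes tested (0.0129%). The study tested fragment counts at the same thresholds and reported more genes over the whole table, so these numbers depend on the method. At an unadjusted p under 0.05, 2 of the 21 were lower in Crlf2-/- hearts (background 3.36%) and 0 were higher (3.22%). The fitted fold change was negative for 20 of 21, with a median of -0.22, against a median of -0.0042 and 50.9% negative over all genes tested. Groups did not overlap for 5 of the 21, all lower in Crlf2-/- hearts (background 6.37%), and 0 were higher without overlap (5.37%). The members share a few long precursors, and WT replicate 3 was the highest library for 15 of the 21 and Crlf2-/- replicate 2 the lowest for 10, so these counts are not 21 separate observations.

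**Figure D4:**
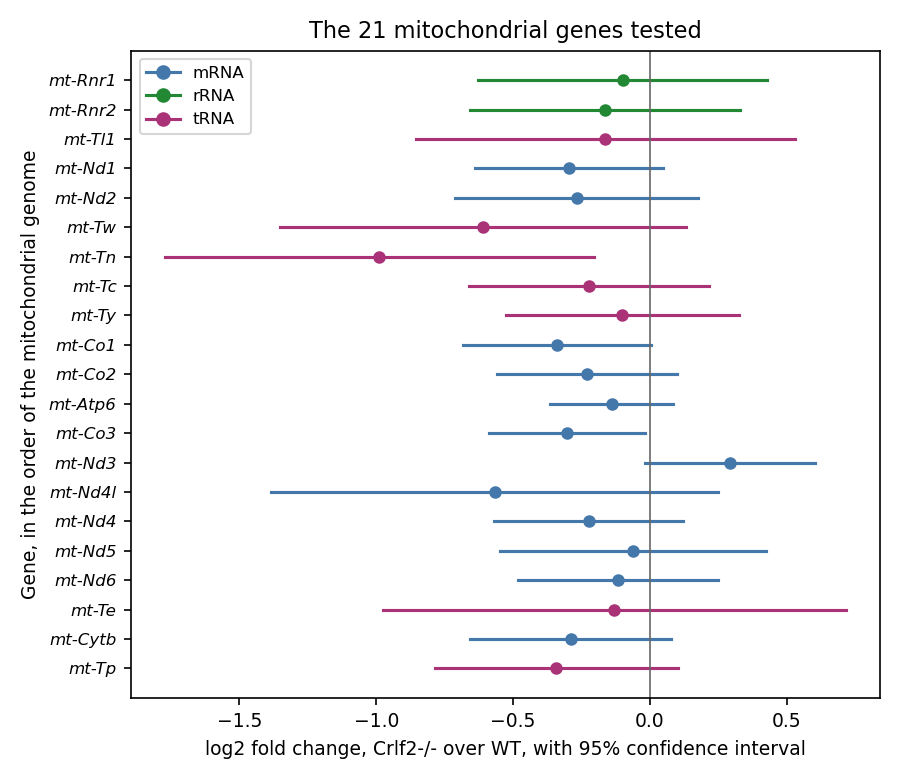
log2 fold change of Crlf2-/- over WT on the log2(FPKM + 0.1) scale, with its 95% confidence interval from limma, for the 21 mitochondrial genes tested, in genome order. All points but that of mt-Nd3 lie below 0, and the intervals of mt-Tn and mt-Co3 end below 0.

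Complex IV subunits lay among the genes whose groups did not overlap. mt-Co1 (ENSMUSG00000064351, MT:5328-6872), the most abundant mitochondrial message, had 6965, 8255 and 8632 FPKM in WT and 6328, 6053 and 6367 FPKM in Crlf2-/- hearts. Every Crlf2-/- heart was below every WT heart, and the 3 Crlf2-/- hearts were close together. Its log2 fold change was -0.34 (SE 0.149, limma adjusted p = 0.766).

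mt-Co3 (ENSMUSG00000064358, MT:8607-9390), a core subunit of the same complex, had 44.7, 57.6 and 55.3 FPKM in WT and 39.5, 42.8 and 44.4 FPKM in Crlf2-/- hearts. The groups were separate by a narrow margin between WT replicate 1 and Crlf2-/- replicate 3. The log2 fold change was -0.30 (SE 0.124, unadjusted p = 0.0394, limma adjusted p = 0.721). mt-Co2 (ENSMUSG00000064354, MT:7013-7696), which takes electrons from cytochrome c, had 80.3, 114 and 103 FPKM in WT and 86.0, 80.8 and 83.5 FPKM in Crlf2-/- hearts. WT replicate 1 fell below the Crlf2-/- hearts, so the groups overlapped (log2 fold change -0.23, SE 0.143, limma adjusted p = 0.897, and -0.13 without WT replicate 2).

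The subunits of complex I, which passes electrons from NADH to ubiquinone, were the most varied. mt-Nd1 (ENSMUSG00000064341, MT:2751-3707) had 2897, 3244 and 3746 FPKM in WT and 2714, 2527 and 2746 FPKM in Crlf2-/- hearts. All Crlf2-/- hearts were lower (log2 fold change -0.30, SE 0.149, limma adjusted p = 0.827). For mt-Nd2, mt-Nd4 and mt-Nd5 the groups overlapped, with log2 fold changes of -0.27, -0.22 and -0.06. Without WT replicate 3 the log2 fold change was -0.20 for mt-Nd1, -0.08 for mt-Nd2 and -0.11 for mt-Nd4. mt-Nd5 had 1219, 1318 and 2007 FPKM in WT and 1565, 1226 and 1467 FPKM in Crlf2-/- hearts, so that its WT mean rested on replicate 3. The same library set mt-Nd4l (ENSMUSG00000065947, MT:9877-10173) apart, with 21.2, 25.5 and 61.9 FPKM in WT and 22.6, 19.2 and 23.5 FPKM in Crlf2-/- hearts. WT replicate 3 alone was high, and the log2 fold change of mt-Nd4l moved from -0.57 (SE 0.354, limma adjusted p = 0.897) to -0.10 without it.

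mt-Nd3 (ENSMUSG00000064360, MT:9459-9806), another complex I subunit, was the exception in direction. It had 11.6, 13.1 and 14.7 FPKM in WT and 13.7, 16.6 and 17.98 FPKM in Crlf2-/- hearts, from 93 to 141 fragments per library. Crlf2-/- replicates 2 and 3 lay above all WT hearts, and Crlf2-/- replicate 1 lay among them. The log2 fold change was 0.29 (SE 0.135, unadjusted p = 0.0616, limma adjusted p = 0.798). As a share of the summed FPKM of the 13 mRNAs, mt-Nd3 was 0.0570 ± 0.00163% (SD, n = 3) in WT and 0.0849 ± 0.0128% in Crlf2-/- hearts. Of the 13 shares it alone did not overlap between the groups. No background was worked out for such shares, so 1 of 13 was not read as a result. For levels, which are a different measure, 5.37% of all genes tested were higher without overlap and 6.37% lower. Whether mt-Nd3 differed from the other members in its response was not tested. Its upstream neighbour mt-Tg, the glycine tRNA that ends at MT:9458, was read with 6, 6 and 4 fragments in the WT hearts, and with 4, 25 and 18 in the Crlf2-/- hearts, so the same 2 Crlf2-/- libraries were high. mt-Tg did not pass the filter and was not tested. The nuclear copy of mt-Nd3, Gm28438, had 4.78, 6.42 and 6.36 FPKM in WT and 4.18, 4.22 and 5.02 FPKM in Crlf2-/- hearts, which overlapped in 1 library, with a log2 fold change of -0.37 (SE 0.146, limma adjusted p = 0.702).

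The single mitochondrial subunit of complex III, mt-Cytb (ENSMUSG00000064370, MT:14145-15288), had 3889, 4381 and 5229 FPKM in WT and 3833, 3396 and 3723 FPKM in Crlf2-/- hearts. The groups did not overlap, though WT replicate 1 and Crlf2-/- replicate 1 were close (log2 fold change -0.29, SE 0.16, limma adjusted p = 0.857, and -0.18 without WT replicate 3). Of complex V, the ATP synthase, mt-Atp6 (ENSMUSG00000064357, MT:7927-8607) had 61.8, 66.8 and 65.4 FPKM in WT and 57.1, 58.3 and 60.1 FPKM in Crlf2-/- hearts. It had the smallest standard error of the members tested, and its groups did not overlap (log2 fold change -0.14, SE 0.0982, limma adjusted p = 0.929). mt-Atp8 (ENSMUSG00000064356, MT:7766-7969) was read with 0, 1 and 3 fragments in the WT hearts, and with 1, 0 and 2 in the Crlf2-/- hearts, which is at or under the floor of 3 counts per library and allows no fold change.

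The ranges of the shares of the complexes overlapped between the groups, for complexes I and IV through WT replicate 3 alone. Complex I messages made up 45.1 ± 2.02% (SD, n = 3) of the summed FPKM of the 13 mRNAs in WT and 47.0 ± 0.236% in Crlf2-/- hearts. For complex III the values were 19.4 ± 0.134% and 19.2 ± 0.39%, and for complex IV 35.2 ± 2.13% and 33.5 ± 0.611%. Complex V made up 0.284 ± 0.0323% and 0.309 ± 0.015%. Both complex V genes, and mt-Co2 and mt-Co3 of complex IV, lie wholly inside the copied stretch, where the levels read were low. The complex IV share was nearly all mt-Co1, which held 34.5% in WT and 32.9% in Crlf2-/- hearts. Without WT replicate 3 the difference (Crlf2-/- minus WT) went from 1.89 to 2.96 points for complex I and from -1.65 to -2.77 points for complex IV, and without WT replicate 2 it was 0.957 and -0.657 points. The spread in WT was wider than in Crlf2-/- hearts for complexes I, IV and V.

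mt-Nd6 (ENSMUSG00000064368, MT:13552-14070) is the only mRNA gene on the minus strand of the annotation. Of its bases 28.1% are G, against 5.88% to 16.1% in the 12 plus-strand mRNAs. It had 1734, 1828 and 2345 FPKM in WT and 1867, 1871 and 1659 FPKM in Crlf2-/- hearts. The groups overlapped (log2 fold change -0.12, SE 0.16, limma adjusted p = 0.995). The log2 ratio of mt-Nd6 to the median of the 12 plus-strand mRNAs was 1.31 ± 0.133 (SD, n = 3) in WT and 1.31 ± 0.21 in Crlf2-/- hearts, a difference of 0.0038. That median falls between the high and the low genes. How the counting treated strand is not given in the sources used here, so fragments on mt-Nd6 may include RNA antisense to it. Against the median of the 6 plus-strand mRNAs not wholly inside the copied stretch, the log2 ratio was -0.40 ± 0.0414 and -0.24 ± 0.165, with overlapping ranges.

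Library preparation used poly-T beads, which capture poly(A) tails, and ribosomal RNAs lack long ones. Both mitochondrial ribosomal RNAs were read at a lower level than the abundant messages. The part that the capture plays in these levels was not tested. mt-Rnr1 (12S, ENSMUSG00000064337, MT:70-1024) had 316, 308 and 408 FPKM in WT and 252, 454 and 280 FPKM in Crlf2-/- hearts. mt-Rnr2 (16S, ENSMUSG00000064339, MT:1094-2675) had 309, 305 and 474 FPKM in WT and 277, 396 and 288 FPKM in Crlf2-/- hearts. For both genes WT replicate 3 and Crlf2-/- replicate 2 were the 2 highest libraries. The log2 fold changes were -0.10 (SE 0.23) and -0.16 (SE 0.214), with limma adjusted p = 0.996 and 0.993. Crlf2-/- replicate 2 was thus at the bottom of the mRNA share (2.65%) and near the top of the rRNA share (0.126%, against 0.135% in WT replicate 3).

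Transfer RNAs carry each amino acid to the mitochondrial ribosome, and at 59 to 75 bases their genes are shorter than a sequencing read, so a fragment counted on one may come from a longer precursor or a neighbour. Of the 22, 6 had 0 fragments in every library (mt-Tf, mt-Tv, mt-Ts1, mt-Td, mt-Tk and mt-Tt), and 7 passed the filter. The most abundant and the one with the lowest p are shown with the anticodon in capitals.
mt-Tp, MT:15356-15422, minus strand: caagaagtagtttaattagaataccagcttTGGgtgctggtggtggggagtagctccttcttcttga
mt-Tn, MT:5089-5159, minus strand: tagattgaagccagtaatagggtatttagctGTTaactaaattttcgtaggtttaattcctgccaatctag
mt-Tp, for proline, had 536, 521 and 541 FPKM in WT and 551, 413 and 323 FPKM in Crlf2-/- hearts. The WT hearts were close together and the Crlf2-/- hearts spread to both sides (log2 fold change -0.34, SE 0.193, limma adjusted p = 0.857, and -0.15 without Crlf2-/- replicate 3). mt-Tn, for asparagine, had 59.9, 85.2 and 92.1 FPKM in WT and 69.2, 32.0 and 26.9 FPKM in Crlf2-/- hearts. Crlf2-/- replicates 2 and 3 were the lowest of the 6, and Crlf2-/- replicate 1 lay within the WT range. Its log2 fold change of -0.99 (SE 0.339, unadjusted p = 0.0195, limma adjusted p = 0.584) was the most negative of the 21 and rested on 43 to 143 fragments per library. An exact permutation test of its FPKM gave p = 0.2 (two-sided, smallest possible 0.1).

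The other 5 tRNAs tested all had overlapping groups and limma adjusted p of 0.842 or more. mt-Tc, for cysteine, was the next most abundant, at 166 to 285 FPKM (log2 fold change -0.22, SE 0.191, and -0.04 without WT replicate 3). mt-Te, for glutamic acid, which directly adjoins mt-Nd6, had 93.2, 116 and 264 FPKM in WT and 152, 98.8 and 145 FPKM in Crlf2-/- hearts. WT replicate 3 alone was high, as for mt-Nd4l, and the log2 fold change of -0.13 (SE 0.366) became 0.32 without that library. mt-Tw, mt-Ty and mt-Tl1, for tryptophan, tyrosine and a leucine codon group, had log2 fold changes of -0.61, -0.10 and -0.16, and that of mt-Tw was -0.29 without WT replicate 3. Among the tRNAs that did not pass the filter, the most fragments over the 6 libraries were on mt-Tg, given above, mt-Ta and mt-Ts2, for alanine and a serine codon group, with 6 to 11 and 1 to 9 fragments per library.

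The nuclear copies on chromosome 1 were read as well, and 1 of them stood apart from the rest by its fold change. Gm29216 (ENSMUSG00000101249), the copy of the end of mt-Co1 shown above, had 51.1, 64.3 and 69.1 FPKM in WT and 20.8, 27.2 and 25.8 FPKM in Crlf2-/- hearts. The highest Crlf2-/- heart was well below the lowest WT heart. The ratio of the means was 0.4 and the log2 fold change -1.31 (SE 0.15, unadjusted p = 2.05e-05), which missed the call in limma (adjusted p = 0.0637). The adjusted p was 0.0472 with limma's voom on the fragments and 0.0478 with the replicate number as a block, and between 0.053 and 0.345 under 13 other alternatives, the highest without WT replicate 2. An exact permutation test gave p = 0.1, the smallest possible for 3 against 3. It rested on 227 to 743 fragments per library, against 216859 to 291592 on mt-Co1, whose log2 fold change was -0.34. The other 6 copies had log2 fold changes from -0.37 to -0.02. The copy of mt-Co3, Gm28437, had 25.8, 31.6 and 31.9 FPKM in WT and 22.9, 25.0 and 24.8 FPKM in Crlf2-/- hearts, without overlap (log2 fold change -0.29, SE 0.113, limma adjusted p = 0.702). It thus lay close to mt-Co3 itself, at -0.30. Because 6 of the 7 copies differ from the mitochondrial sequence by 1 base or none, and Gm29216 by a few bases at one end, fragments of a gene and of its copy are largely interchangeable, and all values for both are uncertain to that extent. A difference between the groups in the nuclear sequence itself cannot be told apart from one in RNA level in a table of FPKM.

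**Figure D5:**
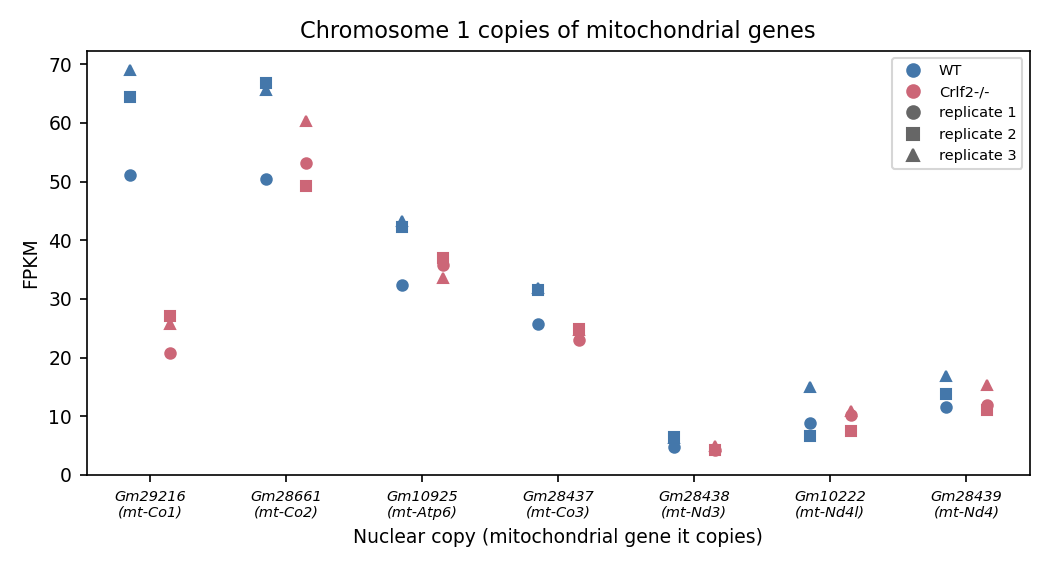
FPKM of the 7 nuclear copies on chromosome 1 in 3 WT and 3 Crlf2-/- hearts, with the mitochondrial gene each one copies in brackets; each symbol is 1 library. The Gm29216 values lie between 51.1 and 69.1 in WT and between 20.8 and 27.2 in Crlf2-/- hearts, and the other copies lie closer together or overlap.

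The nuclear partners of the mitochondrial subunits were described from lists of genes. Of 78 nuclear subunits of complexes I, III, IV and V, all of which passed the filter, 0 were called (all genes 0.0129%), 74 had a negative log2 fold change, 16 were lower at an unadjusted p under 0.05 (all genes 3.36%) and 17 were lower without overlap (6.37%). Their median log2 fold change was -0.22, and by complex it was -0.19 for I, -0.28 for III, -0.26 for IV and -0.23 for V. The 4 subunits of complex II, which has no mitochondrially encoded part, had a median of -0.19. Crlf2-/- replicate 1 was the lowest library of this list, with a median of 19.4 FPKM against 25.0 to 32.5 FPKM in the other 5. Without it the median was -0.03 for complex I, -0.08 for complex III, -0.12 for complex IV and -0.13 for complex V.

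Among the named subunits, Ndufb1-ps of complex I had 13.8, 16.2 and 16.1 FPKM in WT and 11.3, 11.3 and 12.04 FPKM in Crlf2-/- hearts, with all Crlf2-/- hearts lower (log2 fold change -0.40, SE 0.103, limma adjusted p = 0.337). Cox8b, a heart and muscle isoform of a complex IV subunit, had 15.2, 23.6 and 30.9 FPKM in WT and 7.51, 11.4 and 20.1 FPKM in Crlf2-/- hearts. Its groups overlapped through Crlf2-/- replicate 3 (log2 fold change -0.88, SE 0.366, limma adjusted p = 0.729). For Cox7a1, another muscle isoform of that complex, the log2 fold change was -0.86 (SE 0.345, limma adjusted p = 0.71). Ndufa3 of complex I, Sdhd of complex II, Uqcr10 of complex III and Atp5g1 and Atp5l of complex V had log2 fold changes of -0.45, -0.29, -0.41, -0.45 and -0.39. The limma adjusted p of these 5 genes lay between 0.461 and 0.867.

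The log2 ratio of the median mitochondrial mRNA to the median nuclear subunit was 5.36, 5.34 and 6.32 in WT and 6.18, 5.44 and 5.68 in Crlf2-/- hearts. WT replicate 3 and Crlf2-/- replicate 1 were high, and the groups overlapped. The difference was 0.09 (pooled SD 0.477) and lay between -0.12 and 0.41 when single libraries were left out. The median mitochondrial mRNA is mt-Nd5 or mt-Nd4 alone in each library, so the ratio follows those genes. With the median of the 7 mRNAs not wholly inside the copied stretch, the difference was 0.07, again with overlap.

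Genes that copy and transcribe mitochondrial DNA showed no common direction. Of 18 genes of mitochondrial DNA transcription and replication, 9 had positive and 9 negative log2 fold changes, with a median of 0.0003. Without overlap, 3 were lower (6.37% of all genes) and 1 was higher (5.37%). Tfam, which packages mitochondrial DNA and starts its transcription, was at 5.89 ± 0.246 FPKM in WT (SD, n = 3) and at 5.97 ± 0.392 FPKM in Crlf2-/- hearts (log2 fold change 0.02, SE 0.103, limma adjusted p = 0.996). Polrmt, the mitochondrial RNA polymerase, had a log2 fold change of -0.24 (SE 0.132, limma adjusted p = 0.857). Mgme1, a nuclease of mitochondrial DNA, had 2.88, 3.13 and 3.16 FPKM in WT and 1.97, 2.13 and 1.55 FPKM in Crlf2-/- hearts. Every Crlf2-/- heart was lower (log2 fold change -0.68, SE 0.149, limma adjusted p = 0.254).

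Of 19 genes tested of mitochondrial RNA processing and stability, 0 were called (all genes 0.0129%), and their median log2 fold change was -0.03. None had an unadjusted limma p under 0.05 (3.36% of all genes lower and 3.22% higher), which is near the background for a list of this size. Lrpprc, which stabilises mitochondrial mRNAs, was at 4.69 ± 0.203 FPKM in WT (SD, n = 3) and at 4.47 ± 0.231 FPKM in Crlf2-/- hearts (log2 fold change -0.07, SE 0.105, limma adjusted p = 0.995). Pnpt1 and Fastkd1 had log2 fold changes of 0.26 and -0.30 (limma adjusted p = 0.804 and 0.85). The 12 translation factors had a median of -0.06, with Taco1, an activator of mt-Co1 translation, at 0.21 (SE 0.109, limma adjusted p = 0.845). Of the 12, 2 were higher without overlap (5.37% of all genes) and 0 lower (6.37%). Of 77 mitochondrial ribosomal protein genes, 59 had a negative log2 fold change, with a median of -0.06, and Mrps6 stood at -0.46 (SE 0.165, limma adjusted p = 0.635). Without overlap, 7 of the 77 were lower (6.37% of all genes) and 0 higher (5.37%). Their median was 0.03 without Crlf2-/- replicate 1.

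Of 11 PGC-1 and nuclear respiratory factor regulators, 7 were negative, with a median of -0.10. Ppargc1a, the PGC-1α gene, was at 0.783 ± 0.232 FPKM in WT (SD, n = 3) and at 0.555 ± 0.276 FPKM in Crlf2-/- hearts (log2 fold change -0.48, SE 0.329, limma adjusted p = 0.928), and Perm1, a muscle regulator of the same programme, was at -0.75 (SE 0.319, limma adjusted p = 0.748). The mitochondrial stress response genes (17 tested) and the mitophagy genes (11 tested) had medians of -0.04 and -0.02, with Ddit3 at -0.34, Pink1 at -0.16 and Tbk1 at 0.11 (limma adjusted p = 0.561, 0.979 and 0.965). Of the 17, 5 were lower without overlap (6.37% of all genes) and 0 higher (5.37%). At an unadjusted limma p under 0.05, 2 of the 17 were lower (3.36%). Of the 11 mitophagy genes, 0 met either rule. In these lists 0 genes were called (0.0129% of all genes).

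Markers of cell types were set beside the mitochondrial share. All 14 cardiomyocyte genes had a negative log2 fold change, with a median of -0.72 and 0 called (0.0129% of all genes). Of them 5 had an unadjusted p under 0.05 (lower in 3.36% of all genes), and 1, Myl2, was lower without overlap (6.37% of all genes). Their median level was 46.7, 75.5 and 85.3 FPKM in WT and 22.9, 22.8 and 62.2 FPKM in Crlf2-/- hearts. Crlf2-/- replicates 1 and 2 were lowest, but Crlf2-/- replicate 3 lay above WT replicate 1, while its mitochondrial share lay below that of WT replicate 1. Myl2, the ventricular myosin light chain, had 81.3, 120 and 117 FPKM in WT and 28.6, 30.5 and 78.6 FPKM in Crlf2-/- hearts, without overlap (log2 fold change -1.35, SE 0.369, limma adjusted p = 0.391). Myl3, Myh6 and Tnnt2, 3 other sarcomere genes, were at -1.51, -1.17 and -0.43, with overlapping groups and limma adjusted p of 0.539, 0.792 and 0.897. In bulk RNA, fewer cardiomyocytes and less RNA per cardiomyocyte cannot be told apart.

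The log2 ratio of the median mitochondrial mRNA to the median cardiomyocyte gene was 4.71, 4.13 and 4.55 in WT and 5.94, 5.75 and 4.56 in Crlf2-/- hearts. It overlapped between the groups and was on average 0.96 higher in Crlf2-/- hearts (pooled SD 0.57), or 0.69 without Crlf2-/- replicate 1. Here too the median mitochondrial mRNA is mt-Nd5 or mt-Nd4 alone. With the median of the 7 mRNAs not wholly inside the copied stretch, the difference was 0.93, with overlap. The part that cell makeup plays in the mitochondrial share was not tested.

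Of the other cell types, the T cell list (10 of 10 tested genes negative, 8 without overlap, against 6.37% of all genes lower without overlap) had a median of -1.03 on the log2 scale, and its summed level was 22.2 to 32.0 FPKM in WT and 12.6 to 15.4 FPKM in Crlf2-/- hearts. The red blood cell list (5 of 5 tested genes negative, all 5 without overlap, against the same 6.37%) had a median of -1.29, with a summed level of 226 to 370 FPKM in WT and 85.0 to 162 FPKM in Crlf2-/- hearts. The medians were 0.08 for fibroblasts and matrix, -0.13 for endothelium, 0.10 for monocytes and macrophages, 0.22 for neutrophils and 0.26 for nuclear retained RNA. Without WT replicate 3 the median was -0.04 for monocytes and macrophages and -0.02 for neutrophils. That of neutrophils was -0.03 with no filter, and that of fibroblasts and matrix was -0.01 without WT replicate 1. The fat list (4 tested) had a median of -1.16, the skeletal muscle list (4 tested) of 1.56 and the atrium list (1 tested) of 1.30, the last 2 carried by Crlf2-/- replicate 2. By the rule given above, 0 genes of these lists were called (0.0129% of all genes).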

How the data were processed

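Total RNA of infarcted hearts was enriched for mRNA with poly-T beads and sequenced in pairs. The authors trimmed reads with FASTP 0.19.4, aligned them with HISAT2 2.0.5, counted fragments with featureCounts 1.5.0-p3 and deposited FPKM per gene and library. The submitters' notes name mm10 and hg38. The gene positions followed mm10. Strand and multiple matches are not given in the sources used here. Nonzero FPKM times gene length came out as whole fragments for 100% of values (tolerance 0.05). Other columns held annotation, and 0 were of other samples.

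A trimmed mean of M values set the scale between libraries. The test was limma 3.58.1 in R 4.3.3 (lmFit, eBayes with trend and robust) on log2(FPKM + 0.1) of 15520 genes, and was tried on simulated data. Ratios on this scale understate changes of low genes. Sequences came from GENCODE M21 transcripts, compared in windows of 150 bases. Python 3.11.15 was used otherwise.

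Members, lists and alternatives were chosen with earlier results of these data known. Named were all mRNAs, rRNAs and tested tRNAs, the 3 other tRNAs with most fragments, and from each list of mitochondrial function, the copies and the cardiomyocytes the genes of smallest p and largest change, with Tfam, Polrmt, Lrpprc, Ppargc1a, Myh6, Tnnt2 and Crlf2. Gm10222, Gm28661, Gm10925, Gm28437, Gm28438 and Gm28439 were named as copies, Gm10222 after its sequence was matched, and the genes this rule took from the other lists are given by list only, except Adipoq, Actn3 and Myl4. Alternatives were other scalings, filters, pseudocounts, denominators and summaries, voom, a replicate block and leaving out libraries, and those built on the copied stretch or on the libraries with most rRNA were added after seeing the data.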

Additional observations from a re-analysis of the deposited data

How the results depend on the processing

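The count of mitochondrial genes called stayed at 0 under all 15 alternatives, with a smallest limma adjusted p of 0.0905, that of mt-Tn without Crlf2-/- replicate 1, where its log2 fold change was -1.40. Of all genes, 2 were called, against 6 with no filter, 1 with 10 fragments in every library, 4 with the replicate block and 1 to 14 with single libraries left out, the most without Crlf2-/- replicate 1. Of 315 comparisons of a tested gene's log2 fold change with an alternative, 304 kept their direction and 11 changed sign, all with a library left out. Filters and the replicate block cannot move a gene's log2 fold change, and scalings, pseudocounts and voom moved it little. The 304 are therefore not a measure of stability, and only leaving out libraries bears on the direction. The ranges over single libraries left out were -0.35 to 0.0639 for mt-Rnr1, -0.32 to 0.0442 for mt-Rnr2, -0.43 to 0.19 for mt-Tl1, -0.27 to 0.0856 for mt-Ty, -0.20 to 0.16 for mt-Nd5, -0.20 to 0.016 for mt-Nd6 and -0.43 to 0.32 for mt-Te. All 7 changed sign without WT replicate 3, and mt-Rnr1 also without Crlf2-/- replicate 1, and mt-Tl1, mt-Nd5 and mt-Te also without Crlf2-/- replicate 2. The difference in mitochondrial share lay between -0.82 and -0.35 points with single libraries left out. The summed mRNA difference of -0.28 became -0.11 with the median over 13 genes, which is the value of mt-Nd5 or mt-Nd4 in each library. Nuclear lists held 0 called genes, except 1 with voom (Gm29216) and 2 with the replicate block (Gm29216 and Hbb-bt). Replicate numbers are not said to mark a shared mouse, litter or day, and libraries of the same number deviated from their group means with correlations of -0.02, 0.12 and 0.12, so the block was not read as pairing. It called 0 mitochondrial genes. Depth limits mt-Atp8 and the tRNAs that did not pass the filter, and why these values moved was not tested.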
